A study of Saccharomyces cerevisiae with 8 samples.

Results

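Intergenic regions of the budding yeast genome that carry the name of a protein-coding gene, and that were bright in untreated cells for all 4 proteins measured, which work with RNA polymerase III (Pol III), are described here. A region qualified when its name was the letter i followed by a systematic gene name, with repeat and Ty elements left out, and when its value was 1.5 or more on each of the 4 arrays at 0 min. Of 5806 gene-named regions among 6399 features, 429 qualified, or 7.39%. They carry the names of 404 distinct genes, and 46 of them are pieces of the same intergenic stretch as another. A further 4 regions next to other Pol III genes or ribosomal DNA were left out by name, of which 2 would have passed the limit. Because the 0 min values chose these regions, their brightness at 0 min is a description. The arrays at 30 min are the part of the data that the choice did not use, but their values follow those at 0 min closely.

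Pol III transcribes tRNA genes, 5S ribosomal RNA and a few other short RNAs. At a tRNA gene the factor TFIIIC binds promoter elements inside the gene and places TFIIIB just upstream, and TFIIIB then recruits the polymerase for repeated rounds of transcription. Rapamycin inhibits the TOR complex and mimics nutrient starvation, under which the repressor Maf1 lowers Pol III transcription. Many yeast tRNA genes lie between protein-coding genes, so a region named for a protein-coding gene can border a tRNA gene.

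Cells grown exponentially in rich medium either received rapamycin at 0.2 ng per µl for 30 min or were left untreated (0 min). In each state chromatin was immunoprecipitated for Bdp1 and Brf1 (TFIIIB, myc-tagged), C160 (the largest Pol III subunit, HA-tagged) or Tau95 (TFIIIC, myc-tagged). With 4 proteins and both states there are 8 groups, each with 1 deposited sample, which is called an array below. Per the labels, every array carried wild-type DNA in Cy5 and DNA of a strain without MAF1 in Cy3. The deposited numbers are a single log2 value per feature, read as relative brightness, and which strain they stand for is unknown. The experiments were done in triplicate per the design text, but with 1 deposited value no replicate error, interval or p-value can be given for any difference. The number of arrays limits the precision.

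Between 117 and 639 features per array had no value, with the Brf1 array at 30 min lacking the most. The highest value was 5.61 on the Tau95 array at 30 min, where the other 7 arrays reached between 6.81 and 8.13. The median over all features was higher at 30 min than at 0 min by 0.12 for Tau95, 0.10 for Brf1, 0.08 for C160 and 0.02 for Bdp1. Changes are given as deposited. Subtracting these medians, called centring below, lowers every change of a protein by the amounts just named, so a positive change smaller than that amount has no settled sign. All but 6 of the 429 regions had 8 values, and those 6 lacked only Tau95 at 30 min.

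After 30 min of rapamycin the regions as a set were still bright for every protein. The Bdp1 median at 30 min was 2.91 (quartiles 2.42 and 3.77) and that of Brf1 was 2.60 (1.99 and 3.47). C160 had a median of 2.91 (2.25 and 3.82, n = 429 throughout), and Tau95 one of 2.72 (2.14 and 3.40, n = 423). The other gene-named regions had medians of -0.16, -0.11, -0.18 and -0.03 for Bdp1, Brf1, C160 and Tau95 on the same arrays. Of 423 regions with 4 values at 30 min, 362 again reached 1.5 for all 4 proteins, or 85.6%, where 12.6% of all features with 4 values did so. By protein, 427 of 429 reached it for Bdp1, 381 of 429 for Brf1, 412 of 429 for C160 and 408 of 423 for Tau95. Over all features those shares were 21.1%, 18.5%, 17.7% and 18.5% in the same order. Pearson's r between values at 30 min and 0 min over the other gene-named regions was 0.92 (Bdp1), 0.81 (Brf1), 0.88 (C160) and 0.85 (Tau95). A region chosen as bright at 0 min was therefore likely to be bright at 30 min too.

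A region's name points to the stretch on the side of higher coordinates of the named gene. This was checked on the 30 min arrays over all gene-named regions. Those whose gene has a tRNA gene on that side only had medians of 2.56 (Bdp1, n = 214), 2.03 (Brf1, n = 214), 1.93 (C160, n = 216) and 2.09 (Tau95, n = 215). With a tRNA gene on the side of lower coordinates only, the medians were 0.17 (n = 197), 0.04 (n = 182), -0.03 (n = 201) and 0.21 (n = 200) in that order. Neighbours were read from RefSeq genes of assembly R64, in which 404 of the 429 regions' names and 5559 of all 5806 were found. The sources used here do not give the array's own build, so places are given by neighbouring genes and no coordinates are printed.

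A tRNA gene was next on that side for 120 of the 404 matched regions, or 29.7% (95% Wilson interval 25.5% to 34.3%, which covers counting error only), against 4.17% of all matched gene-named regions. These 120 regions border 119 distinct tRNA genes. A further 9 had a Pol III gene on the other side only, 275 had none on either side, and 25 had names not in the table. Of the 275, 72 were named for 1 of the 10 outermost protein-coding genes of a chromosome arm and 203 for genes further in. Seen from the annotation, 120 of all 232 gene-named regions with a tRNA gene next were in the set. Of the 112 that were not, 5 lacked a value at 0 min and 30 missed the limit on 1 array, which was the Tau95 array in 26 cases.

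Regions with and without a tRNA gene next passed the same rule and differed in their median changes under rapamycin. Where a tRNA gene was next, the median change (30 min minus 0 min) was -0.26 (Bdp1), -0.68 (Brf1), -0.40 (C160) and 0.33 (Tau95), over 120 regions. For the other 309 regions (303 for Tau95) it was 0.07, 0.07, 0.34 and 0.06. Over all features it was 0.04, -0.03, 0.09 and 0.19, so Tau95 was higher at 30 min in general. These 309, spoken of below as without a tRNA gene next, include the 25 whose neighbours could not be read. Without those 25 the medians were 0.08, 0.07, 0.34 and 0.06. Without a tRNA gene next, Brf1 and Tau95 came to -0.03 and -0.05 centred and to -0.64 and 0.41 with arrays scaled to equal spread of the features outside the set and not named for Pol III genes, so these have no settled sign. The 4 medians next to tRNA genes kept their signs on every scale tried. So did C160 and Bdp1 elsewhere, though Bdp1 there was only 0.05 centred and 0.02 with equal spread. With equal spread the medians next to tRNA genes were -1.66 for Brf1 and 0.74 for Tau95. On that scale Brf1 was thus lower in both classes and Tau95 higher in both. The classes lay apart by -0.76 in Brf1, -0.74 in C160, -0.33 in Bdp1 and 0.26 in Tau95 (tRNA gene next minus none next). It was not tested, since each protein and time has 1 array.

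**Figure D1:**
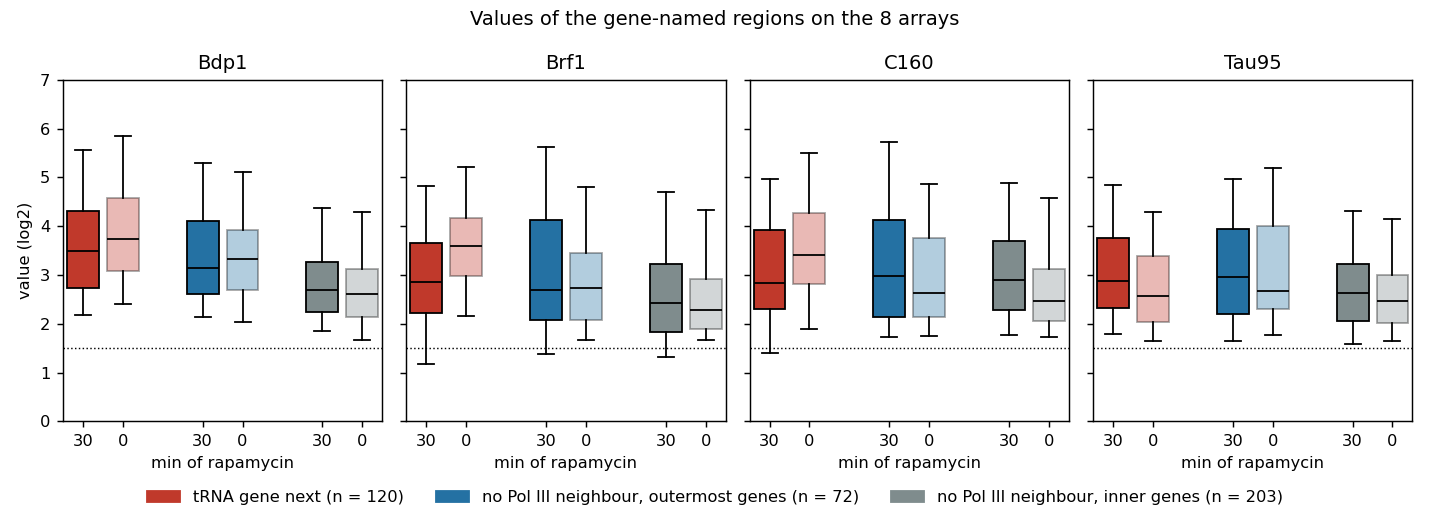
Values (log2) at 30 min (dark boxes, left) and 0 min (pale boxes, right) for regions with a tRNA gene next, regions of outermost genes and regions of inner genes without a Pol III neighbour (n = 71 and 199 in these last classes for Tau95 at 30 min). Boxes show the median and quartiles over regions, whiskers the 5th to 95th percentile, and the dotted line the limit of 1.5 that chose the regions at 0 min. For Brf1 and C160 the box at 30 min sits below that at 0 min where a tRNA gene is next (medians of 2.86 and 3.60 for Brf1, 2.84 and 3.41 for C160).

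Choosing regions by a high value at 0 min favours lower values at 30 min, so each protein's change was also computed over regions chosen on the 0 min arrays of the other 3 proteins alone. The medians at tRNA genes were then -0.25 (Bdp1), -0.67 (Brf1), -0.38 (C160) and 0.44 (Tau95). Elsewhere they were 0.09, 0.14, 0.34 and 0.07, and centred the Tau95 value was -0.04. The 2 classes also differ in brightness at 0 min. Among regions whose mean over the 4 arrays at 0 min lay between 2.5 and 3.5, the medians were -0.40, -0.85, -0.38 and 0.32 with a tRNA gene next (n = 53), and 0.09, 0.11, 0.38 and 0.06 without (n = 101), for Bdp1, Brf1, C160 and Tau95. With a mean below 2.5 they were 0.01, -0.37, -0.38 and 0.32 with a tRNA gene next (n = 18), and 0.09, -0.12, 0.23 and 0.06 without (n = 152), so that Bdp1 was about level there. With a mean of 3.5 or more they were -0.22, -0.50, -0.44 and 0.34 (n = 49), and -0.03, 0.42, 0.54 and 0.06 (n = 56). Centred, Tau95 without a tRNA gene next was -0.05, -0.06 and -0.06 in the dim, middle and bright class, and Bdp1 next to a tRNA gene in the dim class was -0.01. With equal spread, Brf1 without a tRNA gene next was -0.63, -0.65 and -0.73 in these classes, and -0.49 by the rule on the other 3 proteins. The positive Brf1 medians given above without a tRNA gene next thus have no settled sign.

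Counted region by region, a value at 30 min lower by 2-fold or more (a log2 change of -1 or less) in Brf1 was found at 47 of the 120 regions next to a tRNA gene and at 7 of the other 309, with 7.1% over all features. For C160 the counts were 23 and 2, with 2.17% over all features, and for Bdp1 6 and 2, with 2.72%. Tau95 was lower by as much at 1 and 5 regions, with 1.81% over all features. A C160 value higher by 2-fold or more was found at 1 region next to a tRNA gene and at 29 without one, with 3.36% over all features. For Tau95 such a value was found at 17 and 10 regions, with 6.87% over all features, and for Brf1 at 4 and 24, with 5.28%. Bdp1 was higher by as much at 0 and 1, with 0.777%. The counts depend on the scale. With equal spread, Brf1 was lower by 2-fold at 90 and 74 regions and higher at 2 and 2. Tau95 was higher by 2-fold at 9 and 7 regions centred and at 39 and 34 with equal spread. C160 was lower by as much at 38 and 5 and higher at 0 and 17 with equal spread. Since the 0 min values chose the regions, these counts are descriptions.

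**Figure D2:**
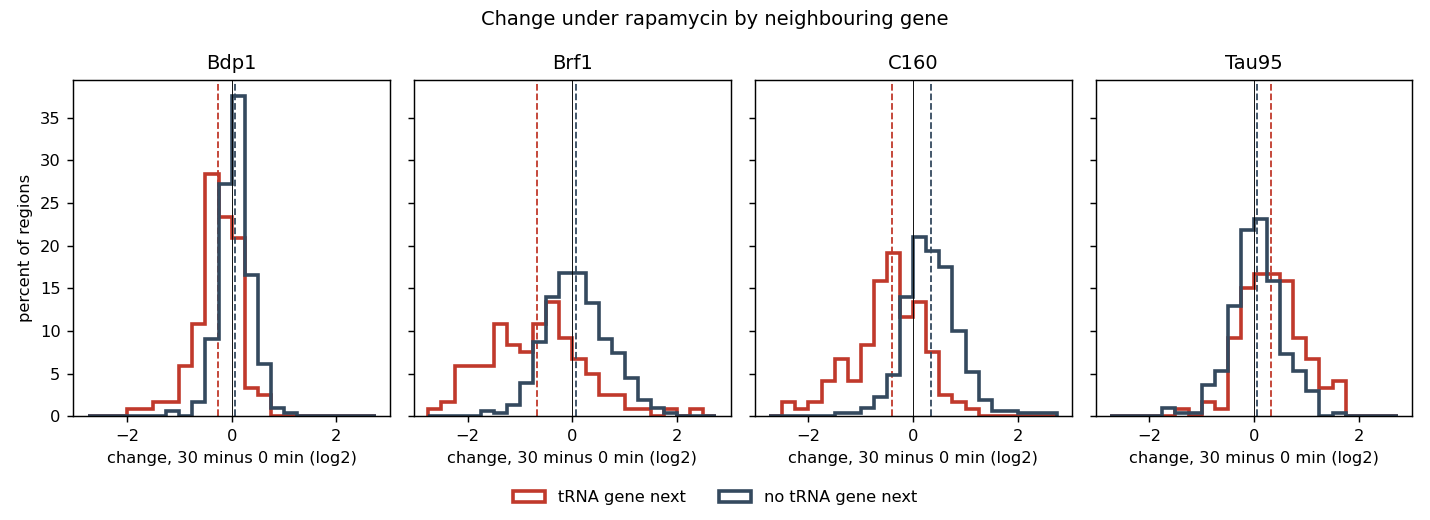
Distribution of the change (30 min minus 0 min, log2) for regions with a tRNA gene next (red, n = 120) and without one (dark, n = 309, and 303 for Tau95), as percent of the regions of each class. Dashed lines mark the medians, which lie apart by 0.76 for Brf1 and 0.74 for C160 and by 0.33 and 0.26 for Bdp1 and Tau95.

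In direction, Brf1 was lower at 96 of the 120 regions next to a tRNA gene, or 80.0%, C160 at 89 (74.2%) and Bdp1 at 88 (73.3%). Over all features, 52.1%, 42.1% and 45.2% were lower for Brf1, C160 and Bdp1, and 47.9% and 54.8% higher for Brf1 and Bdp1. Tau95 was higher at 87 of the 120 (72.5%), with 65.0% higher and 35.0% lower over all features. Centred, Tau95 was higher at 79 of the 120 (65.8%). With equal spread, Brf1 was lower at 113 (94.2%), C160 at 104 (86.7%), and Tau95 higher at 108 (90.0%). The shares over all features are as deposited and are not given on these other scales, so they cannot be set against these counts. Without a tRNA gene next, C160 was higher at 239 of 309 regions (77.3%), with 57.9% over all features, and at 195 (63.1%) with equal spread. For Brf1 the split there was 141 lower and 168 higher as deposited and 264 lower and 45 higher with equal spread. For Tau95 it was 137 lower and 166 higher as deposited, 176 and 127 centred, and 56 and 247 with equal spread.

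Bdp1, Brf1 and C160 were lower together at 64 of the 120 regions next to a tRNA gene, or 53.3%, against 14.8% of all features, and at 22 of 303 regions without one (7.26%). With Tau95 higher at the same time, the counts were 42 (35.0%) and 10 (3.3%), against 7.85% of all features. All 4 proteins were higher at 3 and at 56 regions (2.5% and 18.5%), against 15.1% of all features. Values of both Brf1 and C160 lower by 2-fold or more were found at 20 of the 120 and at 1 of the 303, against 0.929% of all features. With equal spread the counts of this last pattern were 35 and 2, and those of Bdp1, Brf1 and C160 lower together 79 and 53. At the 20 regions the median change of Bdp1 was -0.56, and Tau95 was higher at 10 and lower at 10, between -0.49 and 1.01.

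**Figure D3:**
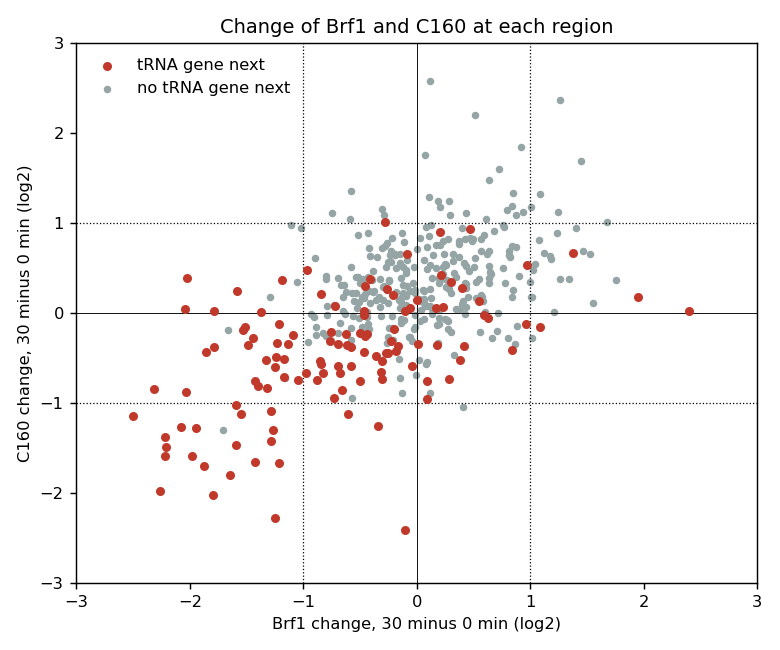
Change (30 min minus 0 min, log2) of C160 against that of Brf1 at each region, with a tRNA gene next in red and without one in grey. Dotted lines mark 2-fold. The lower left corner beyond both lines holds 20 red points and 1 grey point, the region of ISC10.

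The single grey point in that corner shows a limit of the annotation. Beside ISC10, a gene of sporulation, Brf1 was 3.65 at 30 min and 5.36 at 0 min, and C160 3.94 and 5.24. The gene table places the short gene SLO1 next, but SLO1 names no region of the array, and the next gene among those that do, or that Pol III transcribes, is a tRNA gene. Read in this way, 11 further regions have a tRNA gene next, which makes 131 of 404 (32.4%). The share over all gene-named regions on this reading is not given here, and the classes elsewhere in the text keep the first reading. On that reading the median changes next to tRNA genes were -0.22 (Bdp1), -0.67 (Brf1), -0.38 (C160) and 0.30 (Tau95). The 11 added regions on their own had medians of 0.0033, -0.31, 0.03 and -0.23 in that order, so that as a set they did not follow ISC10 in C160, nor the other regions next to tRNA genes in C160 and Tau95.

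Single regions next to tRNA genes show how far the proteins went apart. The gene that names a region gives its place only, and nothing was measured of the gene. Beside JJJ2, a J-domain protein gene, Brf1 was 0.23 at 30 min and 2.73 at 0 min, and C160 was 0.59 and 1.74. Tau95 there was 2.23 at 30 min and 1.60 at 0 min, and Bdp1 was 2.79 and 2.98. The polymerase and Brf1 were thus dim at 30 min where Bdp1 and Tau95 were bright. Beside SPO74, a sporulation gene, Brf1 was 0.69 at 30 min and 2.95 at 0 min, and C160 was 0.47 and 2.45. Its Bdp1 values were 3.17 and 3.67, and its Tau95 values 1.83 and 1.87.

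MET17, which encodes an enzyme of methionine synthesis, names the region where Tau95 stood furthest above the other proteins at 30 min, by 1.20 over their mean. Tau95 was 2.69 at 30 min and 1.68 at 0 min. C160 there was 0.16 at 30 min, the lowest of all 429 regions, and 1.75 at 0 min. Brf1 was 1.03 and 3.01, and Bdp1 3.27 and 3.87. At NUP100, a nuclear pore protein gene, the same quantity was 1.16. Brf1 was 1.64 at 30 min and 3.86 at 0 min, C160 1.44 and 2.82, and Tau95 3.08 and 2.41.

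The 3 lowest values of this quantity were also found next to tRNA genes. Beside MTL1, a gene of the cell wall integrity pathway, Tau95 was 2.15 below the mean of the others, at 1.48 at 30 min and 2.78 at 0 min. C160 there was 3.85 at 30 min and 2.91 at 0 min. Beside TCM62 the difference was -1.56 and beside TCB1, a tricalbin gene, -1.51.

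The largest changes of C160 downward were found beside GCD11, which encodes a subunit of the initiation factor eIF2, and beside the S-phase cyclin gene CLB6. At GCD11 C160 was 2.51 at 30 min and 4.92 at 0 min, while Brf1 was 3.48 and 3.58. At CLB6 C160 was 2.69 at 30 min and 4.97 at 0 min, and Brf1 3.30 and 4.55. RPC17, itself the gene of a Pol III subunit, followed with C160 at 1.82 and 3.84 and Brf1 at 1.47 and 3.27. For Brf1 alone, TVS1 beside the tRNA gene SUP61 had 1.23 at 30 min and 3.54 at 0 min. The lowest change of Bdp1 was at GIS4, with 2.75 at 30 min and 4.67 at 0 min. RNR4, a ribonucleotide reductase gene, and the cyclin gene CLB5 followed at -1.70 and -1.38.

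Brf1 was higher at 30 min at 24 of the 120. Beside GLC7, the gene of the catalytic subunit of protein phosphatase 1, Brf1 was 4.82 at 30 min and 2.42 at 0 min. C160 there was 3.46 and 3.43, and Bdp1 2.71 and 2.89. YCR006C, beside the tRNA gene SUF2, had Brf1 at 4.53 and 2.59 and C160 at 4.79 and 4.62. The 3 highest changes of Tau95 lay beside ATG31, an autophagy gene, ZEO1 and SSM4, the gene of a ubiquitin ligase of the endoplasmic reticulum. Tau95 was 3.30 at 30 min and 1.59 at 0 min at ATG31, 3.42 and 1.78 at ZEO1, and 3.499 and 1.88 at SSM4. All 3 have a tRNA gene next, which at ZEO1 is SUF1, and none of their other values changed by 2-fold.

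Of the 3 regions with the lowest changes of Tau95 the neighbours are unknown, and the 3 with the highest changes of Bdp1 have a protein-coding gene next. Tau95 was 2.71 at 30 min and 4.36 at 0 min at YDR544C, 1.61 and 3.23 at YDR543C, and 1.41 and 2.93 at YLR379W, 3 names that the gene table does not hold. Bdp1 was 3.66 at 30 min and 2.55 at 0 min beside MET14, a gene of sulfate assimilation, where C160 was 2.12 and 1.73. It was 2.46 and 1.58 beside SEC23, a gene of the COPII coat, and 2.39 and 1.53 beside YPS6, a protease gene of the cell surface.

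**Figure D4:**
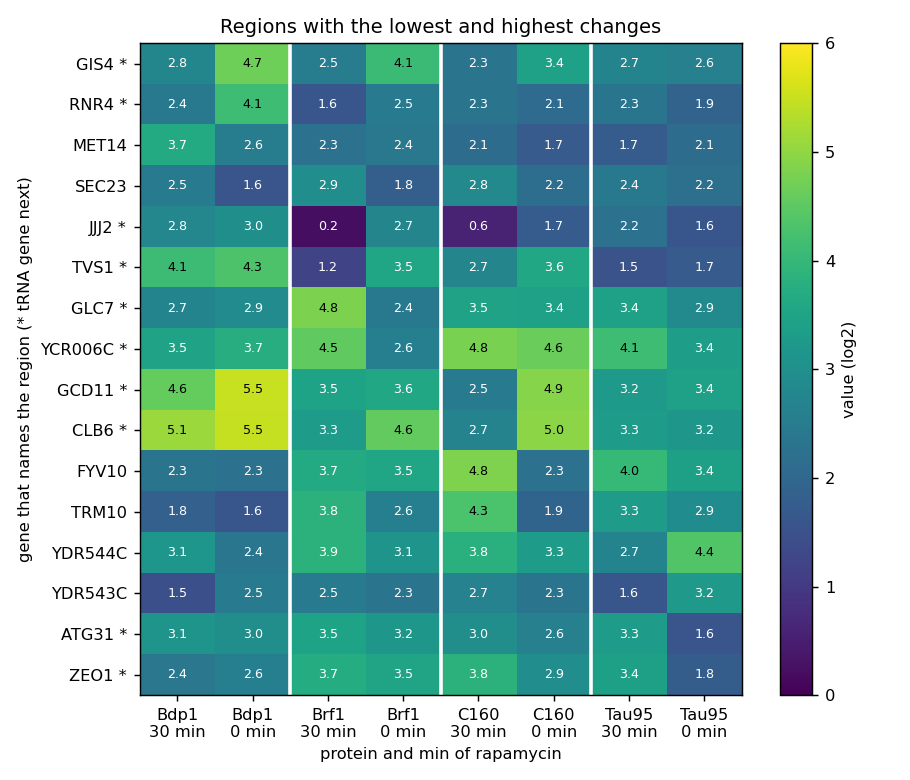
Values (log2, colour and printed) at 30 min and 0 min of each protein for the regions with the 2 lowest and the 2 highest changes of Bdp1, Brf1, C160 and Tau95, in that order downward, named by their gene. Stars mark a tRNA gene next. The rows of JJJ2 and TVS1 are dark for Brf1 at 30 min (0.23 and 1.23), and those of FYV10 and TRM10, without a star, are brighter for C160 at 30 min (4.84 and 4.30) than at 0 min (2.25 and 1.93).

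The strand of the tRNA gene tells which of its sides a region lies on. Regions on the 3′ side were in the set in 64 of 117 cases (54.7%, 95% Wilson interval 45.7% to 63.4%), and those on the 5′ side in 56 of 115 (48.7%, 39.8% to 57.7%). At 30 min the median was lower on the 3′ side for each protein, at 3.11 against 3.79 on the 5′ side for Bdp1, 2.51 against 3.17 for Brf1, 2.71 against 3.22 for C160 and 2.62 against 3.25 for Tau95. The median changes on the 3′ and 5′ sides were -0.30 and -0.15 for Bdp1, -0.74 and -0.58 for Brf1, -0.44 and -0.36 for C160, and 0.23 and 0.40 for Tau95. In textbook models TFIIIB sits upstream of the gene and TFIIIC within it. Tau95 relative to the mean of Bdp1 and Brf1 at 30 min was -0.14 on the 3′ side and -0.17 on the 5′ side, a difference of 0.04. That difference changed sign in 4 of the alternatives tried, so it has no settled direction at 30 min. At 0 min the same quantity was -1.14 on the 3′ side and -1.03 on the 5′ side in the set. Over all gene-named regions with a tRNA gene next it was then -1.14 (n = 115) and -0.74 (n = 112). The gap at 0 min was not tested.

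Regions named for tRNA genes, by the same naming the stretch on their higher-coordinate side, were held to the same limit for comparison. Among the 120 gene-named regions next to a tRNA gene the medians at 30 min were 3.502 (Bdp1), 2.86 (Brf1), 2.84 (C160) and 2.88 (Tau95). Among 152 of the 250 tRNA-named regions that passed the limit they were 3.72, 3.03, 3.10 and 2.97. The median changes of the tRNA-named regions were -0.19, -0.71, -0.46 and 0.19, and Bdp1, Brf1 and C160 were lower together at 82 of 151 (54.3%). The 112 gene-named regions next to a tRNA gene that failed the limit had median changes of -0.21 (Bdp1), -0.39 (Brf1), -0.11 (C160) and 0.29 (Tau95), at 30 min medians of 1.27, 0.66, 0.63 and 1.12.

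The median distance between the brightest and the dimmest of the 4 values at 30 min was 1.21 with a tRNA gene next (quartiles 0.71 and 1.63, n = 120) and 0.97 without (0.71 and 1.24, n = 303). With a tRNA gene next, Bdp1 was the brightest in 73 of 120 regions and C160 in 17. Without one, C160 was the brightest in 132 of 303 and Bdp1 in 122. Both depend on the scale. With equal spread the distances were 1.18 and 1.16, C160 was the brightest in 51 of 120 and 216 of 303 regions, and Bdp1 in 34 and 40. Pearson's r between Brf1 at 30 min and at 0 min was 0.62 next to tRNA genes (n = 120 regions) and 0.86 elsewhere (n = 309). For Bdp1 it was 0.93 and 0.96. At 0 min, r between 2 proteins over the other gene-named regions ran from 0.80 (Bdp1 and Tau95) to 0.89 (Brf1 and C160). Brightness shared by the proteins was thus not particular to the set. These are descriptions across regions that share their arrays and are not independent.

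Among the 275 regions with no Pol III gene on either side, the ends of chromosomes were overrepresented. The class of the 10 outermost protein-coding genes was set after the names had been seen. It held 72 regions, named for 56 genes on all 16 chromosomes, or 17.8% of the matched regions, against 6.4% of all matched gene-named regions. Counting regions without a tRNA gene next, 30 of 62 named for the outermost 2 genes of an arm were in the set (48.4%, 95% Wilson interval 36.4% to 60.6%), 26 of 105 for genes 3 to 5 (24.8%) and 16 of 189 for genes 6 to 10 (8.47%). From gene 41 inward the share was 169 of 4091 (4.13%, 3.56% to 4.79%). These intervals treat the regions as independent, which pieces of the same stretch and copies of repeats are not, so they are too narrow near the ends. On the 30 min arrays, 68.9% (Bdp1), 66.1% (Brf1), 57.4% (C160) and 56.7% (Tau95) of regions of the outermost 2 genes reached 1.5. From gene 41 inward these shares were 12.6%, 11.2%, 11.1% and 11.9% in the same order. The rule did not use these arrays, but their values follow those of untreated cells closely. Of the 62 regions of the outermost 2 genes, the rule had already chosen 30. The shares at 30 min are therefore a description and no independent test of the excess near the ends.

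**Figure D5:**
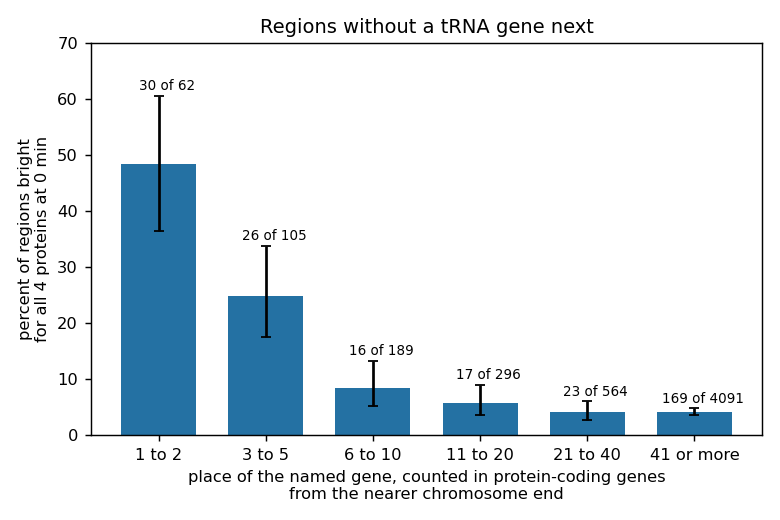
Percent of gene-named regions without a tRNA gene next that reached 1.5 for all 4 proteins at 0 min (bars, with 95% Wilson intervals for counting error), by the place of the named gene counted in protein-coding genes from the nearer chromosome end. The share is 48.4% for the outermost 2 genes and 4.13% from gene 41 inward. The intervals treat regions as independent, which pieces of the same stretch and copies of repeats are not.

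Some of these regions are named for repeated families, whose near-identical copies an array may not tell apart, so their number is not a number of independent loci. Counted wherever they lie, PAU genes, a family of cell wall mannoproteins, named 12 regions among 29 on the array, COS genes 4 among 17, and YRF1 genes, the helicases of the Y′ repeats, 3 among 4. Genes with a systematic name only and among the outermost named 28 of 81. DAN and TIR genes named 3 of 10, FLO genes 1 of 11, HXT genes 1 of 27 and AAD genes 0 of 6. Of all gene-named regions 7.39% were in the set, and most of these families are too small to be set against that share.

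Over the 72 outermost regions the medians at 30 min and 0 min were 3.14 and 3.33 for Bdp1, 2.69 and 2.74 for Brf1, 2.98 and 2.62 for C160, and 2.95 and 2.68 for Tau95. The median changes were -0.06, 0.24, 0.23 and -0.02. With equal spread Brf1 was -0.62 and Tau95 0.37, so neither has a settled sign. Beside YRF1-4 Brf1 was 5.55 at 30 min and 4.71 at 0 min, and C160 5.72 and 4.39. Beside COS6, in 1 piece of the region, C160 was 5.93 at 30 min and 4.45 at 0 min. Another piece of that region in the set went the other way, with C160 at 2.47 and 2.69. Beside ARN2, a siderophore transporter gene, 1 piece had C160 at 6.23 and 4.39. Tau95 did not follow at YFL064C, where it was 4.46 at 30 min and 5.77 at 0 min.

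The 203 regions of inner genes without a Pol III neighbour had medians at 30 min and 0 min of 2.69 and 2.61 for Bdp1, 2.44 and 2.29 for Brf1, 2.91 and 2.46 for C160, and 2.64 and 2.47 for Tau95. Their median changes were 0.10, 0.07, 0.36 and 0.08. Centred, Brf1 and Tau95 were -0.03 and -0.03, and with equal spread -0.64 and 0.42, so only the Bdp1 and C160 medians kept their sign on these scales. C160 was higher at 160 of 203 (78.8%), with 57.9% over all features, and its median change was 0.15 with equal spread. The 3 largest C160 changes upward among all 429 were here. Beside FYV10, the gene of a subunit of the GID ubiquitin ligase, C160 was 4.84 at 30 min and 2.25 at 0 min, with Bdp1 at 2.32 and 2.25. Beside TRM10, a tRNA methyltransferase gene, C160 was 4.30 and 1.93, and beside KAP123, a nuclear import receptor gene, 3.94 and 1.74.

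Of all 129 regions on the array named for ribosomal protein genes, whatever their neighbours, 5 were in the set (3.88%), against 6.76% for other genes with a name. They are RPS8A, RPS14A, RPL24B, RPL13B and RPL25. The region of RPL25 was by far the brightest of these, with C160 at 6.16 at 30 min and 4.41 at 0 min, Brf1 at 5.40 and 5.32, Tau95 at 5.19 and 4.49, and Bdp1 at 4.06 and 4.29. RET1, the gene of the second-largest Pol III subunit, also named a region of the set, with C160 at 2.65 at 30 min and 2.91 at 0 min and Bdp1 at 2.07 and 1.95.

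By mean over the 4 proteins at 30 min, the brightest region with all 8 values lay next to a tRNA gene, beside VOA1, a gene of vacuolar ATPase assembly. It had Bdp1 at 6.39 at 30 min and 6.19 at 0 min, Brf1 at 5.79 and 4.82, C160 at 5.82 and 5.94, and Tau95 at 5.61 and 5.07. Of the 8 brightest by this mean, 3 had a tRNA gene next (VOA1, YDL211C and MIM1) and the other 5 were named for outermost genes. At the dim end were PEX25, beside the tRNA gene IMT2, with a mean of 1.41, then JJJ2 at 1.46, PAU10 at 1.49 and SPO74 at 1.54.

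The 6 regions without a Tau95 value at 30 min include some of the brightest. Beside KTR1, a mannosyltransferase gene, C160 was 8.13 at 30 min and 7.18 at 0 min, and Tau95 was 7.20 at 0 min. A piece beside LRS4, a gene of the rDNA silencing complex, had C160 at 7.84 and 6.59 and Tau95 at 6.40 at 0 min. Neither has a Pol III neighbour in the gene table. The highest Tau95 value left in the set at 30 min was 5.61.

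At the limit itself, regions just inside had as their lowest 0 min value 1.51 (PIC2), 1.52 (BIO2), 1.52 (SRP40) and 1.52 (PPZ1). Just outside were RAD30, CLB2 and MRN1, at 1.496, 1.496 and 1.495, and OMS1 at 1.49, always for Tau95. RAD30, the gene of a DNA polymerase for damaged templates, has a tRNA gene next and had Brf1 at 0.66 at 30 min and 3.85 at 0 min. The locus known as ZOD1, where the region named for TIM21 lies, is known from budding yeast as a site of Pol III machinery away from tRNA genes. It was outside the set because C160 was 1.06 at 0 min, with 1.53 at 30 min. Its Bdp1 values were 3.33 and 3.04, Brf1 2.19 and 1.91, and Tau95 2.83 and 2.82, at 30 min and 0 min.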

How the data were processed

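DNA from chromatin immunoprecipitation was hybridised to arrays of intergenic regions. The deposited table gives 1 log2 value per feature and sample, which the authors made from replicate enrichment ratios scaled so that unbound loci had a median of 1, per the labels' design text. The log base is not stated and was taken as 2, since on the Brf1 array at 30 min 93.9% of 2873 antilogs of base 2 lay within 0.05 of a whole step, where chance gives 10%. For base e and base 10 the shares were 13.4% and 17.2%. The sources used here do not give background correction, spot filters, platform or build. The plan assumed a ratio of strains. The values read as brightness instead, so no statement on MAF1 is made.

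Regions were chosen by name and a limit of 1.5 at 0 min, with letter case ignored because chromosome IX is spelled in lower case. Differences are 30 min minus 0 min. Neighbours came from the R64 gene table, taking the first gene that starts after the named gene ends. With 1 sample per group there is no test. Members, lists and alternatives were chosen with earlier results of these data known. The split by tRNA neighbour, the outermost class, the families, the brightness classes, on-array neighbours and the tolerance of 0.1 for calling a median moved were set after seeing the data. Named regions are those highest or lowest at 30 min, in change or in Tau95 relative to the others, those nearest the limit, and ZOD1. ISC10, RET1, KTR1, LRS4 and the ribosomal protein genes were named after their values were seen. Alternatives changed the limit, centring, spread, choice of arrays and class of regions. Scripts were tested on simulated data and used Python 3.11.15, pandas 2.3.3, numpy 2.4.6 and scipy 1.17.1.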

Additional observations from a re-analysis of the deposited data

Results flagged for a closer look

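At the 120 regions with a tRNA gene next, Tau95 moved upward in the median and the other 3 proteins downward between the same times. Tau95 also moved upward over all features, with a median change of 0.19 beside 0.33 at these regions. At the 120 regions the median change of Tau95 minus that of Bdp1 was 0.59, minus that of Brf1 1.01 and minus that of C160 0.73. The difference was not tested, since each protein and time has 1 array. No group holds enough samples to look for a sample far from the others.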

How the results depend on the processing

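A limit 0.25 lower chose 564 regions and a limit of 2 chose 267, against 429. Median values at 30 min for Bdp1, Brf1, C160 and Tau95 were 2.68, 2.36, 2.65 and 2.43 with a limit 0.25 lower and 3.42, 3.14, 3.49 and 3.18 with a limit of 2. With equal spread they were 2.54, 2.48, 3.14 and 2.82. Centring gave 2.81 for Bdp1 and 2.55 for Tau95, regions without a Pol III neighbour 2.48 for Brf1, and the rule on the other 3 proteins 2.44 for Brf1 and 2.81 for C160. Over all regions the small median changes had no settled sign. Bdp1, at 0.01 as deposited, was -0.025 with a limit of 2, -0.013 centred and -0.04 with equal spread. Brf1, at -0.10, was -0.20 centred, -0.85 with equal spread, 0.08 without a Pol III neighbour and 0.019 by the rule on the other 3. C160, at 0.18, was -0.0096 with equal spread and 0.34 without a Pol III neighbour. Tau95, at 0.10, was -0.013 centred and 0.48 with equal spread. Without a Pol III neighbour, 229 regions reached the limit again at 30 min, from fewer regions. The share with a tRNA gene next was 25.1% with a limit 0.25 lower and 36.6% with 2. The 3′ minus 5′ difference, at 0.04, was -0.0515 with a limit of 2, -0.10 for Brf1 alone, -0.13 with equal spread and -0.046 over all gene-named regions with a tRNA gene next.

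The following alternatives were chosen after seeing the data. The difference between regions with and without a tRNA gene next was -0.49 for Bdp1 and -0.96 for Brf1 among regions with a mean of 2.5 to 3.5, and -1.02 for Brf1 and -0.84 for C160 with equal spread. Next to tRNA genes, Brf1 changed by -0.78 centred and -1.66 with equal spread, C160 by -0.70 with equal spread, and Tau95 by 0.21 centred, 0.74 with equal spread and 0.44 by the rule on the other 3. Without a tRNA gene next, Brf1 was -0.027 centred and -0.64 with equal spread, C160 0.14 with equal spread, and Tau95 -0.055 centred and 0.41 with equal spread. With equal spread, counts of 2-fold differences next to tRNA genes were 90 lower for Brf1, 38 lower for C160 and 39 higher for Tau95, which was 9 centred, and elsewhere 17 higher for C160, 74 lower and 2 higher for Brf1, which was 11 lower centred, and 34 higher for Tau95. The cause of these shifts was not tested. The other 90 values kept their direction, and the medians among them stayed within the tolerance. Counts and shares among these 90 could move further, such as the 564 regions chosen by the lower limit. No paired analysis was possible because each group has 1 deposited sample, and for the same reason no replicate could be left out.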
